A study of Oryza sativa with 80 samples.

Results

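The effect of growth-limiting drought on rice (Oryza sativa) leaves that had also been heat shocked was measured in 1 stretch of the blade, segment 3, by sequencing of poly(A) RNA. The comparison set 4 drought libraries, called D40, against 4 well-watered libraries, called W40, and these 8 were chosen by their labels out of 80 libraries. W40 seedlings grew in pots kept at a soil water content of 3 g per g dry soil and were collected at 10 days. D40 seedlings grew at 1.5 g per g and were collected at 12 days, so leaf age moved with soil water and the influence of each cannot be told apart. Both groups spent 30 min at 40 °C before collection at midday. The blade of the third leaf, fully elongated, was cut into 7 equal pieces, of which the 5 middle ones were sequenced, with segment 2 nearest the base. Each replicate held matched segments of 3 leaves. The matching groups kept at 30 °C, W30 (3 g per g) and D30 (1.5 g per g), had 4 libraries each in segment 3, and the labels name no cultivar. The labels also give a batch, as a number with no further meaning stated: batch 1 held W40 replicate 1 and D40 replicates 1 and 2, and batch 2 held W40 replicates 2 to 4 and D40 replicates 3 and 4.

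Drought raises abscisic acid in leaves. The hormone binds soluble receptors, which then block clade A PP2C phosphatases; this frees SnRK2 kinases, which phosphorylate bZIP transcription factors that switch on target genes, among them those for dehydrins and other LEA proteins, which protect cell contents during drying. Heat unfolds proteins and releases heat stress transcription factors, which switch on genes for chaperones such as small heat shock proteins, HSP70, HSP90 and HSP100. Loci below are grouped by the list under which they were entered by hand from general knowledge, and no annotation table at hand could check that entry, so a list name says only what its members were entered as. Values are CPM, counts of a locus scaled to a common library size, which compare 1 locus between libraries and not levels between loci. A locus is called higher or lower where edgeR's quasi-likelihood test, with batch as a term and adjusted over all genes tested, gave an adjusted p under 0.05.

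The 8 libraries held 53398019 to 115480709 counts. They were leaf libraries by their markers: the 4 measured Rubisco loci summed to 14867 to 39533 CPM and the 13 light-harvesting loci to 78106 to 124083 CPM, the meristem homeobox locus had 0 counts in all 8 libraries, and the 4 dividing cell loci summed to 7.10 to 11.4 CPM in W40 and 5.18 to 9.43 CPM in D40. The libraries stood apart by batch. The first principal component held 49.3% of the variance, and batch took up 82.8% of the spread along it, while soil water took up 77.4% of the spread along the second, which held 30.6%. Along the second, W40 replicate 1 was at -15.1, on the side of the D40 libraries at -77.7 to -39.3. W40 replicates 2 to 4 were at 82.4 to 87.0. The heat shock itself read differently in the batches. The 14 small heat shock protein loci summed to 2888 to 4634 CPM in the 3 heat-shocked libraries of batch 1 and to 21241 to 59851 CPM in the 5 of batch 2, against 48.7 to 131 CPM in the 8 libraries kept at 30 °C. The part of this batch difference in the results was not tested, so values within each batch stand beside most of them, and W40 has 1 library in batch 1.

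Across all genes, 1751 of 21736 differed between D40 and W40 (8.06%), with 1172 higher (5.39%) and 579 lower (2.66%). The median log2 change was 1.62 among the higher genes and -1.18 among the lower ones, and 0.0096 over all genes tested. In such bulk samples fewer cells of a type and less RNA per cell cannot be told apart. Of the higher genes 464 rose by more than 2 on the log2 scale, and of the lower ones 132 fell by as much. Every D40 library lay above every W40 library for 585 of the 1172 higher genes, and below for 342 of the 579 lower ones, where 4.95% and 4.32% of all genes tested showed such groups. The difference depended on batch. Batch 1 alone called 25 genes (0.112% of 22282), 0.0539% higher and 0.0583% lower. Batch 2 alone called 8319 (36.8% of 22592), 19.8% higher and 17% lower. A test of the difference between batches called 4387 genes (20.2%), the drought effect being higher in batch 2 for 10.7% and lower for 9.45%, and 693 of the 1751 were among them. That count was 2513 without D40 replicate 1, and it could not be had without W40 replicate 1, the 1 W40 library of batch 1. In the fit to batch 1 alone, 1056 of the 1123 higher genes with a value had a positive change, with a median of 0.55 against 2.12 in batch 2, and 557 of 575 lower genes had a negative one, with medians of -0.65 and -1.45. The calls came from a fit that holds these same libraries, and that choice by itself favours a shared sign. Of all 21313 genes with a value in both batches, 5306 were positive in both and 5488 negative in both. Across these 21313 genes the changes in the batches had r = 0.21, a description over genes. The number of calls rested on the batch 2 libraries: it was 789, 648 and 665 without W40 replicates 2, 3 and 4, 728 and 561 without D40 replicates 3 and 4, 3612 without W40 replicate 1 and 2464 and 1941 without D40 replicates 1 and 2.

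**Figure D1:**
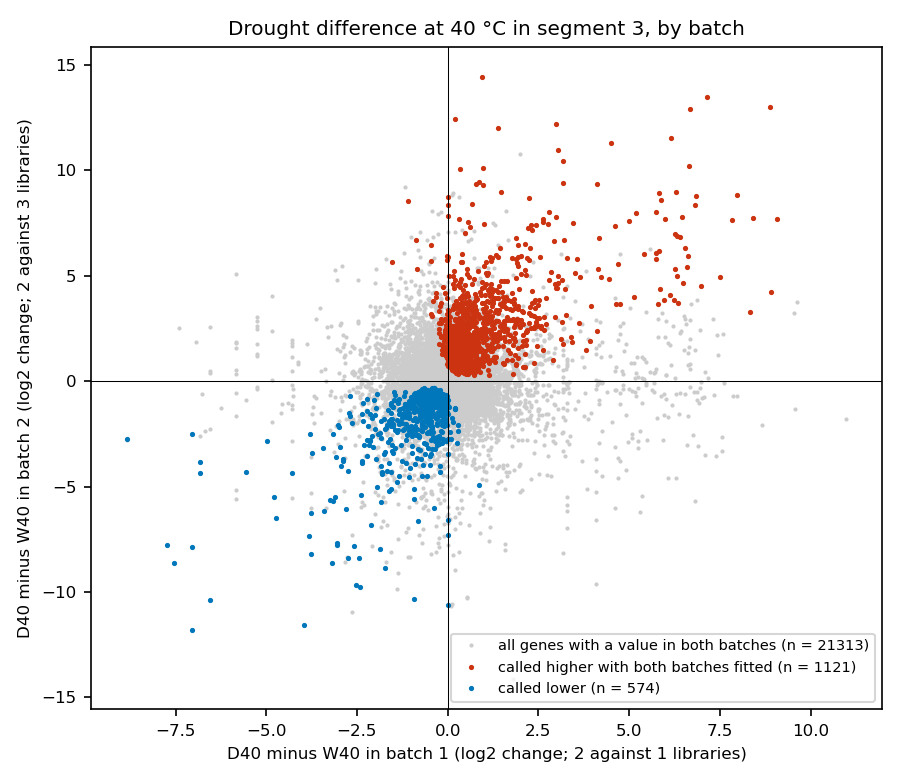
Log2 change of D40 against W40 in segment 3 within batch 1 (horizontal axis) and within batch 2 (vertical axis), 1 point per gene, with genes called with both batches fitted in colour. The called genes lie mostly in the quadrants where both batches have the same sign, and farther from 0 on the batch 2 axis. Calls from a fit to both batches favour a shared sign by that choice.

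Some loci at several steps of the abscisic acid pathway were called higher in drought leaves, most often among its phosphatases and bZIP factors. By contrast, 2 receptor loci were lower. Of the 8 loci listed for synthesis and breakdown of the hormone, 3 were higher and 0 lower, with a list median of -0.011. Changes were positive for 4 of the 8, positive in both batches for 2 and negative in both for 3. The list does not part synthesis from breakdown, so its calls give no direction for the hormone. The shares over all genes, 5.39% higher and 2.66% lower, are the measure for this and each later list. DESeq2 called 3 higher and 0 lower, and limma 2 and 0, DESeq2 being run on the counts with batch as a term, and limma on the deposited batch-corrected FPKM with no such term, here and for the lists that follow. LOC_Os03g44380 was at 1.86, 0.642, 1.14 and 1.48 CPM in W40 replicates 1 to 4 and at 8.21, 5.96, 57.3 and 45.1 CPM in D40 replicates 1 to 4. All D40 libraries lay above all W40 libraries, those of batch 2 by the wider margin. This was a log2 change of 4.29 ± 0.60 (SE; edgeR adjusted p = 0.0015), with 1.92 in batch 1 and 5.58 in batch 2, and the batches differed (adjusted p = 0.00038). LOC_Os08g36860 was at 13.4, 4.71, 3.32 and 4.39 CPM in W40 replicates 1 to 4 and at 15.6, 18.5, 16.4 and 18 CPM in D40 replicates 1 to 4. The groups did not overlap, but W40 replicate 1 stood near the drought libraries and the other W40 libraries well below them. The locus had a log2 change of 1.42 ± 0.29 (SE; edgeR adjusted p = 0.012), and 0.34 in batch 1 and 2.06 in batch 2. LOC_Os07g05940 showed a log2 change of 4.63 ± 1.23 (SE; edgeR adjusted p = 0.033) but went opposite ways, with -1.54 in batch 1 and 5.67 in batch 2: it reached 194 and 82.0 CPM in D40 replicates 3 and 4 and was near 0 in D40 replicates 1 and 2, with 0.105 and 0 CPM. Both first-named loci kept their call when any 1 of the 8 libraries was left out, and LOC_Os07g05940 lost it without any 1 of W40 replicates 2 to 4 or D40 replicates 3 and 4 (adjusted p up to 0.12). LOC_Os02g47510, which was not called, was lower in drought within each batch. It was at 1887 CPM in W40 and 1330 and 1321 CPM in D40 in batch 1. In batch 2 it was at 1126 to 1529 CPM in W40 and 686 and 544 CPM in D40.

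Among the 7 receptor loci tested, 2 were lower in D40 and 0 higher, with a median of -0.53. DESeq2 called 0 higher and 3 lower, and limma 0 and 1. LOC_Os03g18600 was at 26.3, 36.8, 57.8 and 48.9 CPM in W40 replicates 1 to 4 and at 9.48, 7.89, 0.82 and 1.76 CPM in D40 replicates 1 to 4. The groups did not overlap, and the lowest values were those of the 2 D40 libraries of batch 2. The change was -3.04 ± 0.81 (SE; edgeR adjusted p = 0.034), with -1.61 in batch 1 and -5.23 in batch 2. LOC_Os05g39580 had 0 counts in all 4 D40 libraries and 0, 0.277, 0.652 and 0.419 CPM in W40. Its W40 mean of 0.337 CPM was 35.4 times a floor of 3 counts over the whole D40 group. That floor takes in the D40 libraries of batch 1, so the ratio is no lower bound on the drought effect. Since W40 replicate 1 also had 0 counts, batch 1 gave no comparison for it. Neither receptor locus was called without any 1 of W40 replicates 2 to 4 or D40 replicates 3 and 4 (adjusted p up to 0.14 and 0.11). An eighth receptor locus, LOC_Os01g61210, had too few counts to be tested, with 0, 23, 12 and 8 counts in W40 and 0 in each D40 library.

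The clade A PP2C phosphatases, which hold the kinases inactive until a receptor with its hormone binds them, were mostly higher with both batches fitted. Of 9 loci 8 were higher in that fit, against 5.39% of all genes, and 0 lower, and the median log2 change was 2.52. In batch 1 alone 0 were called, with a median of 0.15. DESeq2 called 8 higher and 0 lower, and limma 4 and 0. LOC_Os05g38290 was at 1.46, 3.43, 4.22 and 6.72 CPM in W40 replicates 1 to 4 and at 4.7, 7.26, 179 and 138 CPM in D40 replicates 1 to 4. D40 replicates 3 and 4 were far above every other library, and D40 replicates 1 and 2 lay at the top of the W40 range. It had a log2 change of 4.24 ± 0.85 (SE; edgeR adjusted p = 0.0098) and 2.02 in batch 1 and 5.06 in batch 2. LOC_Os01g40094 was at 50.7, 50.2, 37.2 and 51.6 CPM in W40 replicates 1 to 4 and at 75.1, 76.2, 512 and 479 CPM in D40 replicates 1 to 4. Its groups did not overlap, and the gap was widest in batch 2. It changed by 2.52 ± 0.55 (SE; edgeR adjusted p = 0.015), with 0.57 in batch 1 and 3.42 in batch 2. LOC_Os05g46040 was at 26.7, 25.9, 23.6 and 25.8 CPM in W40 replicates 1 to 4 and at 40.6, 37.6, 180.4 and 161 CPM in D40 replicates 1 to 4, again without overlap, and changed by 2.03 ± 0.45 (SE; edgeR adjusted p = 0.016). LOC_Os05g49730 was almost silent in W40, at 0 to 0.464 CPM, and reached 0.619 and 0.984 CPM in D40 replicates 1 and 2 and 33.8 and 33.6 CPM in D40 replicates 3 and 4.

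For 4 further called phosphatase loci the D40 libraries of batch 1 lay within or near the W40 range. LOC_Os09g15670 was at 2.97, 4.05, 3.79 and 5.6 CPM in W40 replicates 1 to 4 and at 3.65, 2.99, 141 and 146 CPM in D40 replicates 1 to 4. The batch 1 libraries did not part by soil water, while those of batch 2 differed by 5.01 on the log2 scale. LOC_Os03g16170 (3.10), LOC_Os01g62760 (1.85) and LOC_Os01g46760 (1.50) had log2 changes in batch 1 of -0.33, -0.19 and -0.06. The ninth locus, LOC_Os05g51510, was at 26.8 to 35.2 CPM in W40 and 30.1 to 42.7 CPM in D40 and was not called. All 9 differed between batches in the test of that difference: their median change was 0.15 in batch 1, where 0 were called, and 3.42 in batch 2, where 9 were called higher. The list's count was 1 without any 1 of W40 replicates 2 to 4, 4 and 3 without D40 replicates 3 and 4, 9 without W40 replicate 1, and 8 without D40 replicate 1 or 2. LOC_Os05g38290 was the member that stayed called throughout.

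Of the 10 SnRK2 kinases, the relays that phosphorylate the bZIP factors, 2 were higher, against 5.39% of all genes, and 0 lower. The list median was 0.31. DESeq2 called 3 higher and 1 lower, and limma 2 and 0. LOC_Os10g41490 was at 3.91, 5.98, 3.48 and 4.56 CPM in W40 replicates 1 to 4 and at 6.96, 9.91, 23.1 and 25 CPM in D40 replicates 1 to 4. The groups did not overlap, and the change was 1.88 ± 0.30 (SE; edgeR adjusted p = 0.003), with 1.09 in batch 1 and 2.36 in batch 2, and it was called whichever library was left out. LOC_Os01g64970 changed by 1.61 ± 0.34 (SE; edgeR adjusted p = 0.012), with 0.21 in batch 1 and 2.36 in batch 2, and lost its call without W40 replicate 3 (adjusted p = 0.0503). Of the 5 bZIP factors tested 4 were higher and 0 lower, with a median of 1.28. DESeq2 called 4 higher and 0 lower, and limma 1 and 0. LOC_Os09g28310 was at 35.1, 62, 49.8 and 49.9 CPM in W40 replicates 1 to 4 and at 47.7, 52.8, 172 and 188 CPM in D40 replicates 1 to 4. The drought libraries of batch 2 were the highest, those of batch 1 lay inside the W40 range. It changed by 1.28 ± 0.25 (SE; edgeR adjusted p = 0.0086), with 0.51 in batch 1 and 1.74 in batch 2. LOC_Os02g52780 was at 20.8, 30.9, 23 and 32.8 CPM in W40 replicates 1 to 4 and at 22.9, 20.9, 264 and 216 CPM in D40 replicates 1 to 4, with 0.06 in batch 1 and 3.06 in batch 2, and 2.16 ± 0.55 (SE; edgeR adjusted p = 0.028) with both. LOC_Os06g10880 (1.77) and LOC_Os08g36790 (1.00) had changes in batch 1 of 0.013 and 0.16. All 5 members differed between batches, and the 3 last-named loci were not called without any 1 of W40 replicates 2 to 4 or D40 replicates 3 and 4, which left a count of 1.

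**Figure D2:**
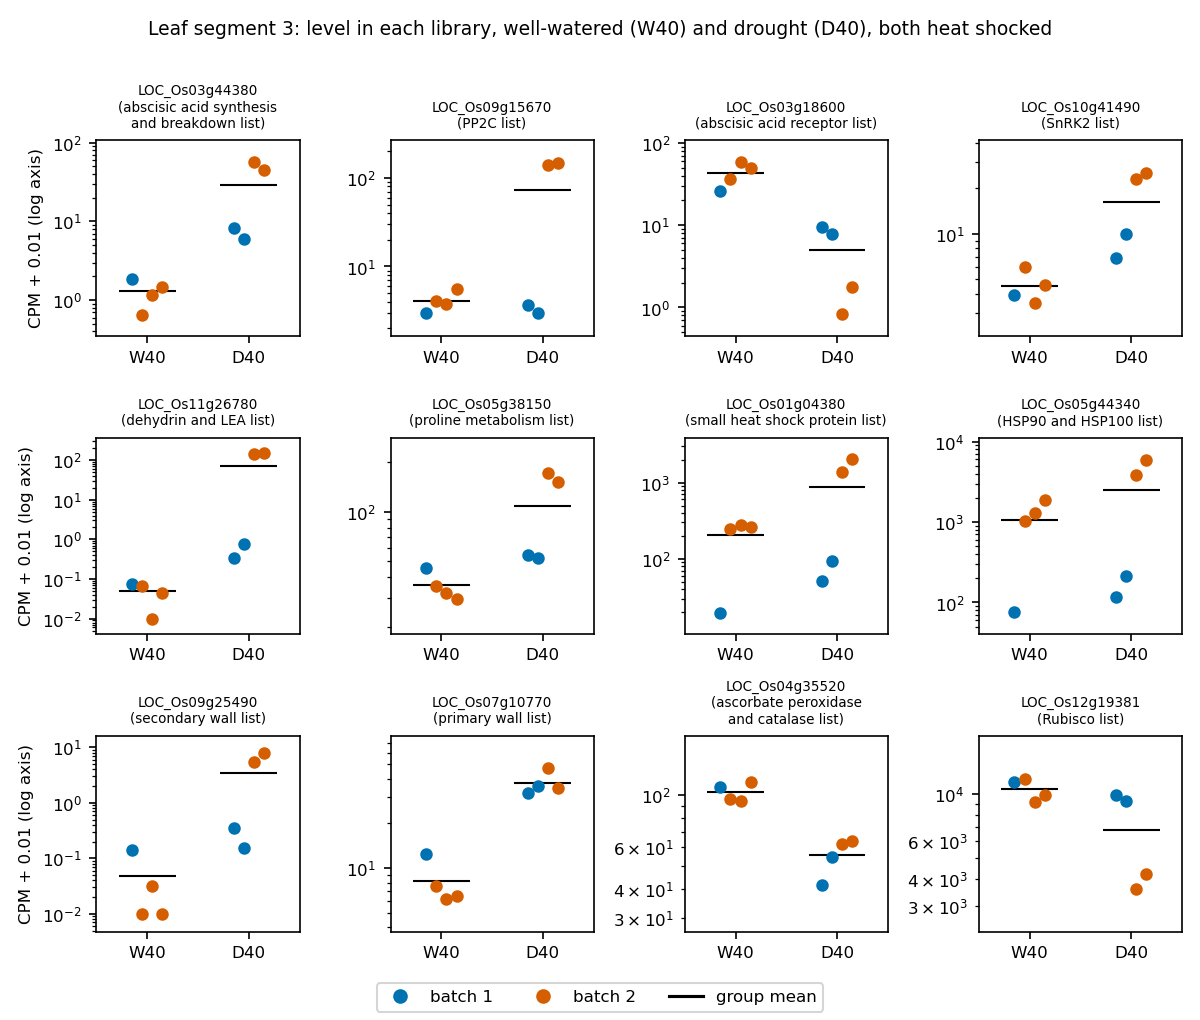
Level of 12 loci in each of the 8 libraries of segment 3 (CPM + 0.01, log axes that differ between panels), W40 on the left and D40 on the right of each panel, coloured by batch, with a bar at the group mean. The batch 2 drought libraries are highest in the panels of the PP2C, dehydrin and small heat shock protein loci, while the drought libraries of both batches stand together above W40 in the primary wall panel and below it in the ascorbate peroxidase and catalase panel.

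Dehydrin and LEA loci had the largest median change of the lists with more than 3 tested members. Of 8 tested 6 were higher and 0 lower, and the median log2 change was 4.38. DESeq2 called 6 higher and 0 lower, and limma 5 and 0. LOC_Os11g26790 was at 0.0663, 0, 0 and 0.134 CPM in W40 replicates 1 to 4 and at 0.0263, 0.246, 652 and 876 CPM in D40 replicates 1 to 4. It was near 0 in all but the 2 drought libraries of batch 2. LOC_Os11g26780 was at 0.0663, 0.0553, 0 and 0.0335 CPM in W40 replicates 1 to 4 and at 0.329, 0.755, 139 and 149 CPM in D40 replicates 1 to 4. Its groups did not overlap, but the D40 libraries of batch 1 were under 1 CPM. LOC_Os05g46480 followed the first pattern, at 0 to 0.737 CPM in W40, 0.0526 and 0.316 CPM in D40 replicates 1 and 2 and 356 and 331 CPM in D40 replicates 3 and 4. The changes of these 3 loci were 12.95 ± 1.69 (SE; edgeR adjusted p = 0.00086), 10.95 ± 1.04 (SE; edgeR adjusted p = 0.00011) and 9.54 ± 1.16 (SE; edgeR adjusted p = 0.00059), on levels so near 0 in W40 that the fitted fold depends on a prior count, and all 3 stayed called whichever library was left out.

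LOC_Os11g26760 was at 0.565 to 0.955 CPM in W40, 1.76 and 1.32 CPM in D40 replicates 1 and 2 and 19.2 and 17.2 CPM in D40 replicates 3 and 4, with a log2 change of 3.62 ± 0.89 (SE; edgeR adjusted p = 0.024). LOC_Os11g26750 went from at most 0.531 CPM in W40 to 36.5 and 34.1 CPM in D40 replicates 3 and 4, with 1.08 and 0.545 CPM in D40 replicates 1 and 2. LOC_Os03g20680 stayed at or under 3.00 CPM in all 8 libraries, with a log2 change of 3.44 ± 0.97 (SE; edgeR adjusted p = 0.044). These 3 loci were not called without any 1 of W40 replicates 2 to 4 or D40 replicates 3 and 4, and LOC_Os03g20680 also not without W40 replicate 1, which put the count for the list at 3 without any of those 5 and at 6 without any of the other 3, another member being called without W40 replicate 1. The member with the most counts, LOC_Os03g45280, was at 1546 to 3925 CPM in W40 and 2164 to 3451 CPM in D40 and was not called. In batch 1 alone 0 members were called (median 0.94) and in batch 2 alone 7 were higher (median 6.00). LOC_Os11g26750 to LOC_Os11g26790 are numbered next to each other, and reads shared between near-identical copies could have been split between them.

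Loci for compatible solutes, small molecules that hold water in drying cells, moved both ways. Of 5 loci listed for proline and glycine betaine metabolism, 1 was higher and 1 lower. That list does not part synthesis from breakdown, so opposite signs give no direction for the solutes. DESeq2 called 2 higher and 1 lower, and limma 1 and 0. LOC_Os05g38150 was at 45.5, 35.1, 32.1 and 29.5 CPM in W40 replicates 1 to 4 and at 54.3, 52.6, 171 and 152 CPM in D40 replicates 1 to 4, without overlap, and changed by 1.59 ± 0.35 (SE; edgeR adjusted p = 0.015), with 0.22 in batch 1 and 2.33 in batch 2. LOC_Os10g40360 was at 1.54, 6.88, 6.83 and 8.88 CPM in W40 replicates 1 to 4 and at 1.01, 0.984, 0.95 and 0.379 CPM in D40 replicates 1 to 4, the reverse order and again without overlap, and changed by -2.65 ± 0.55 (SE; edgeR adjusted p = 0.012), with -0.64 in batch 1 and -3.48 in batch 2. The second kept its call whichever library was left out (adjusted p up to 0.0498), and the first lost it without any 1 of W40 replicates 3 and 4 or D40 replicates 3 and 4 (up to 0.059). Of 5 trehalose and galactinol synthesis loci, which serve the making of protective sugars, 2 were higher and 2 lower. DESeq2 called 3 higher and 2 lower, and limma 2 and 2. LOC_Os10g40550 (2.81 ± 0.47 SE, edgeR adjusted p = 0.0037) rose and LOC_Os02g44230 (-2.66 ± 0.53 SE, edgeR adjusted p = 0.0095) fell, and both were called whichever library was left out. LOC_Os03g20120 was at 16.5 to 44.2 CPM in W40, 13.2 and 20.5 CPM in D40 replicates 1 and 2 and 432 and 318 CPM in D40 replicates 3 and 4. LOC_Os05g44210 was at 67.0 to 106 CPM in W40, 78.5 and 80.5 CPM in the batch 1 and 20.8 and 24.3 CPM in the batch 2 drought libraries. These 2 calls (2.23 and -1.07) were lost without any 1 of W40 replicates 2 to 4 or D40 replicates 3 and 4.

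Several small heat shock protein loci, for ATP-independent chaperones that keep unfolding proteins soluble, were higher in drought leaves, although both groups had been heat shocked. All 14 listed loci had a positive change, as did 11076 of the 21736 genes tested. Of the 14, 5 were called higher, against 5.39% of all genes, and 0 lower, with a median of 1.09. DESeq2 called 4 higher and 0 lower, and limma 6 and 0. LOC_Os01g04380 was at 19.5, 249, 279 and 265 CPM in W40 replicates 1 to 4 and at 51.1, 92.2, 1359 and 2034 CPM in D40 replicates 1 to 4. Within each batch the drought libraries lay above the well-watered ones, but the groups overlapped since both batch 1 groups were low. The change was 2.30 ± 0.47 (SE; edgeR adjusted p = 0.011), with 1.87 in batch 1 and 2.68 in batch 2. LOC_Os01g04370 was at 10.7, 173, 171 and 150.3 CPM in W40 replicates 1 to 4 and at 33.9, 71.9, 1001 and 1885 CPM in D40 replicates 1 to 4, in the same order. It changed by 2.70 ± 0.56 (SE; edgeR adjusted p = 0.012), with 2.29 in batch 1 and 3.13 in batch 2. For LOC_Os11g13980 (2.88 ± 0.53 SE, edgeR adjusted p = 0.016), LOC_Os01g04360 (2.26 ± 0.55 SE, edgeR adjusted p = 0.022) and LOC_Os01g04340 (3.75 ± 0.92 SE, edgeR adjusted p = 0.024) the calls were lost without some batch 2 libraries, and the last was at or under 1.75 CPM throughout. LOC_Os01g04380 alone stayed called whichever library was left out (adjusted p up to 0.0474), and the list's count was 3, 2 and 2 without W40 replicates 2, 3 and 4, 3 and 1 without D40 replicates 3 and 4 and 5 without any of the others.

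Small heat shock protein loci with high counts parted by batch. LOC_Os03g16020 was at 482 CPM in W40 and 362 and 833 CPM in D40 within batch 1, and at 4592 to 6067 CPM in W40 and 8926 and 11204 CPM in D40 within batch 2. LOC_Os02g52150 was lower in drought within batch 1, at 661 and 877 CPM against 1231 CPM, and higher within batch 2, at 4236 and 5785 CPM against 2993 to 3981 CPM. In batch 2 alone all 14 loci were called higher (median 1.61), and in batch 1 alone 0 were called (median 0.68), with 10 positive in both. The neighbouring loci numbered LOC_Os01g04340 to LOC_Os01g04380 and LOC_Os03g16020 to LOC_Os03g16040 may share reads.

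The larger chaperones were not called. Of 8 HSP90 and HSP100 loci and 10 HSP70 loci edgeR called 0 with both batches fitted, with medians of 0.23 and -0.0093. At an unadjusted p under 0.05 there were 0 and 2, DESeq2 called 0 and 1, and limma called 1 and 0. LOC_Os05g44340 of the first list was at 75.9, 1019, 1296 and 1859 CPM in W40 replicates 1 to 4 and at 117, 211, 3805 and 5937 CPM in D40 replicates 1 to 4. Drought libraries were above well-watered ones within each batch, and the change was 1.32 ± 0.75 (SE; edgeR adjusted p = 0.3). LOC_Os06g50300 had the opposite sign in both batches: it was at 407 CPM in W40 against 252 and 288 CPM in D40 in batch 1, and at 2143 to 2738 CPM against 1713 and 1619.9 CPM in batch 2. In batch 2 alone 5 members of the HSP90 and HSP100 list were higher and 1 lower, and 4 of the HSP70 list higher and 3 lower. Of all genes, 19.8% were called higher and 17% lower in batch 2 alone. The HSP70 locus with the smallest p, LOC_Os12g14070, was at 205 to 228 CPM in W40 and 110.4 to 187 CPM in D40, lower without overlap, but missed the threshold (-0.65 ± 0.19 SE, edgeR adjusted p = 0.053); it was called without W40 replicate 1 or D40 replicate 2.

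Of 21 heat stress transcription factors tested, which bind the promoters of chaperone genes, 2 were higher and 1 lower. Over all genes 5.39% were higher and 2.66% lower. A positive change was found in 18 of the 21, and in 11076 of the 21736 genes tested. DESeq2 called 2 higher and 1 lower, and limma 1 and 1. LOC_Os07g08140 was at 2.7, 4.2, 3.26 and 3.96 CPM in W40 replicates 1 to 4 and at 3.69, 3.43, 17.9 and 24.6 CPM in D40 replicates 1 to 4. The batch 2 drought libraries stood above all others and the batch 1 ones inside the W40 range, with a log2 change of 1.76 ± 0.36 (SE; edgeR adjusted p = 0.011). LOC_Os06g35960 was under 0.5 CPM in all libraries except D40 replicates 3 and 4, at 18.7 and 17.6 CPM, with a log2 change of 4.80 ± 1.21 (SE; edgeR adjusted p = 0.027). LOC_Os01g43590 was at 0.381, 0.597, 0.37 and 0.402 CPM in W40 replicates 1 to 4 and at 0.105, 0.0351, 0.06 and 0 CPM in D40 replicates 1 to 4, low everywhere and lower in drought without overlap (-3.12 ± 0.56 SE, edgeR adjusted p = 0.0057). The first and the last of these were called whichever library was left out, and LOC_Os06g35960 was not without any 1 of W40 replicates 2 to 4 or D40 replicates 3 and 4 (adjusted p up to 0.089). In batch 2 alone 11 of the list were higher and 1 lower, and in batch 1 alone 0 were called. None of the 7 unfolded protein response loci of the endoplasmic reticulum was called, with a median of -0.27. At an unadjusted p under 0.05 there were 0, DESeq2 and limma called 0, and batch 2 alone called 1 higher and 2 lower. The batch 2 shares over all genes were 19.8% higher and 17% lower.

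**Figure D3:**
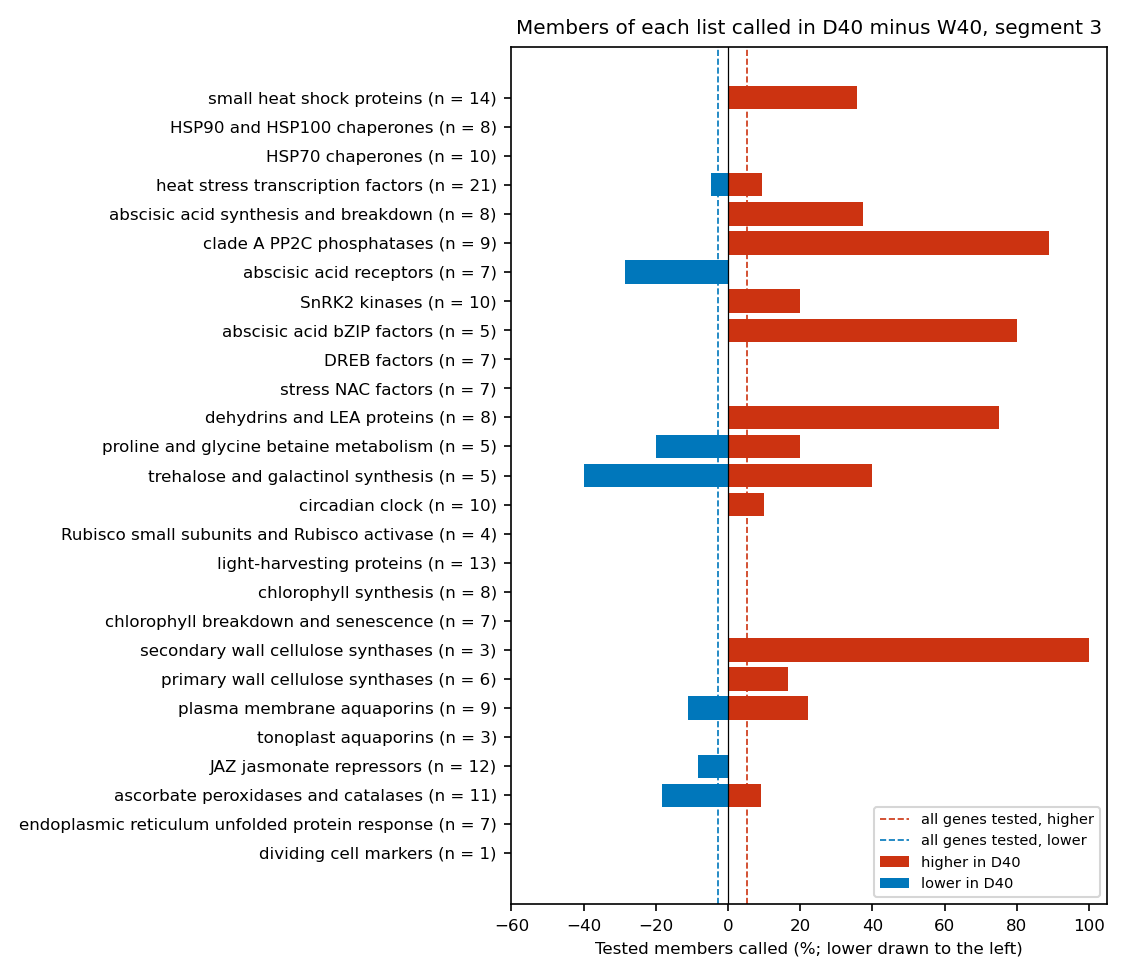
Share of the tested members of each list that were called higher (to the right) or lower (to the left) in D40 than in W40, with the shares over all genes tested as dashed lines. The secondary wall, PP2C, bZIP and dehydrin and LEA lists have at least 75% of their tested members called higher, against 5.39% of all genes.

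The cellulose synthase loci that were called were higher in drought. All 3 cellulose synthases of the secondary wall, the thickened wall of xylem and fibres, were called, with a median of 6.10, at low levels. DESeq2 called 2 higher and 0 lower, and limma 0 and 0. LOC_Os01g54620 was at 0.298, 0.299, 0.185 and 0.369 CPM in W40 replicates 1 to 4 and at 0.763, 0.632, 5.52 and 5.93 CPM in D40 replicates 1 to 4. LOC_Os09g25490 was at 0.133, 0, 0.0217 and 0 CPM in W40 replicates 1 to 4 and at 0.342, 0.141, 5.45 and 7.75 CPM in D40 replicates 1 to 4. In both, the drought libraries lay above all well-watered ones, and only those of batch 2 exceeded 1 CPM. The changes were 3.33 ± 0.86 (SE; edgeR adjusted p = 0.029) and 6.10 ± 1.67 (SE; edgeR adjusted p = 0.039), and LOC_Os10g32980 was at 5.17 and 5.68 CPM in D40 replicates 3 and 4 and under 0.25 CPM in the other 6 libraries. None of the 3 was called without any 1 of W40 replicates 2 to 4 or D40 replicates 3 and 4, or without the low-count filter.

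The primary wall cellulose synthases, which serve growing cells, had a like median change in both batches at 40 °C, though not at 30 °C. Of 6 loci 1 was called higher and 0 lower, all 6 were positive in both batches, and for 5 every D40 library lay above every W40 library, where 4.95% of all genes did. DESeq2 called 3 higher and 0 lower, and limma 1 and 0. LOC_Os07g10770 was at 12.4, 7.6, 6.2 and 6.45 CPM in W40 replicates 1 to 4 and at 31.8, 35.8, 47 and 34.6 CPM in D40 replicates 1 to 4, a change of 2.20 ± 0.51 (SE; edgeR adjusted p = 0.019), with 1.43 in batch 1 and 2.60 in batch 2. LOC_Os07g24190 was at 14.7, 19.4, 18 and 15.8 CPM in W40 replicates 1 to 4 and at 44.9, 48.9, 50.7 and 42.7 CPM in D40 replicates 1 to 4, with 1.66 in batch 1 and 1.40 in batch 2, and missed the threshold (1.52 ± 0.46 SE, edgeR adjusted p = 0.056). LOC_Os07g14850 was at 2.93 to 3.45 CPM in W40 and 8.32 to 12.1 CPM in D40, also without overlap (adjusted p = 0.058). The list median was 1.42, with 1.36 in batch 1, where LOC_Os07g24190 was called higher (edgeR adjusted p = 0.036), and 1.33 in batch 2, where 4 were. The change differed between batches for LOC_Os07g10770 (edgeR adjusted p = 0.022) and for 0 of the other 5. The 1 call was lost without any 1 of W40 replicates 2 to 4 or D40 replicate 3 (adjusted p up to 0.07), and 5 members were called in a fit to the 8 libraries alone. At 30 °C the batches went opposite ways, with a list median of -0.58 and 2 called lower in batch 1 and a median of 2.57 and 6 called higher in batch 2. The test of the effect at 40 °C against that at 30 °C called 4 higher in batch 1 alone, 3 lower in batch 2 alone and 0 with both batches fitted.

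Photosynthesis loci were not called with both batches fitted. For the 4 Rubisco loci, the 13 light-harvesting loci and the 8 chlorophyll synthesis loci edgeR called 0, with medians of -0.68, -0.15 and -0.36. At an unadjusted p under 0.05 there were 2, 0 and 0, DESeq2 called 1, 0 and 0, and limma called 0 in each. LOC_Os12g19381 of the Rubisco list was at 11427, 11775, 9213 and 9888 CPM in W40 replicates 1 to 4 and at 9919, 9282, 3608 and 4219.6 CPM in D40 replicates 1 to 4. The 2 drought libraries of batch 2 were far below the rest, and D40 replicates 1 and 2 overlapped with W40, for a log2 change of -0.86 ± 0.28 (SE; edgeR adjusted p = 0.073). LOC_Os11g47970 of the same list parted first by batch, at 1631 to 1910.3 CPM in batch 1 of either soil water, 15099 to 17262 CPM in W40 and 8138 and 8969.6 CPM in D40 in batch 2. In batch 2 alone 4 Rubisco, 4 light-harvesting and 6 chlorophyll synthesis loci were lower, and in batch 1 alone 0 were. Batch 2 alone called 17% of all genes lower and 19.8% higher. Of 7 chlorophyll breakdown and senescence loci, edgeR called 0 with both batches (median 0.55) and 6 higher in batch 2; DESeq2 called 1 higher, limma 0, and 5 had an unadjusted p under 0.05. LOC_Os01g12710 had the smallest p, at 433, 50.6, 49.9 and 48.4 CPM in W40 replicates 1 to 4 and at 381, 345, 129 and 109 CPM in D40 replicates 1 to 4: W40 replicate 1 was the highest library of all, and the change was -0.27 in batch 1 and 1.26 in batch 2.

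Among antioxidant enzymes, the 11 ascorbate peroxidase and catalase loci that remove hydrogen peroxide had 1 higher and 2 lower. Over all genes 5.39% were higher and 2.66% lower. DESeq2 called 1 higher and 2 lower, and limma 0 and 2. LOC_Os04g35520 was at 109, 96.4, 94.8 and 114 CPM in W40 replicates 1 to 4 and at 41.3, 54.3, 62.2 and 63.9 CPM in D40 replicates 1 to 4. Every drought library was below every well-watered one in both batches, and the change was -0.86 ± 0.17 (SE; edgeR adjusted p = 0.0087), with -1.19 in batch 1 and -0.69 in batch 2, and was called whichever library was left out. LOC_Os02g02400 was at 1453, 144, 200.1 and 184 CPM in W40 replicates 1 to 4 and at 536, 569, 53.7 and 44.6 CPM in D40 replicates 1 to 4. Drought libraries were the lower within each batch, while the batch 1 libraries were several times higher than those of batch 2, so the groups overlapped. It changed by -1.47 ± 0.38 (SE; edgeR adjusted p = 0.028), with -1.41 in batch 1 and -1.84 in batch 2. LOC_Os04g14680 was higher (2.60 ± 0.64 SE, edgeR adjusted p = 0.025), at 20.7 and 43.2 CPM in D40 replicates 3 and 4 and at most 3.60 CPM in the other libraries. The last 2 calls were lost without any 1 of 5 libraries each, W40 replicates 3 and 4 and D40 replicates 3 and 4 in both, W40 replicate 1 for LOC_Os02g02400 and W40 replicate 2 for LOC_Os04g14680.

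Of 9 plasma membrane aquaporins tested, channels that pass water into cells, 2 were higher and 1 lower, where 5.39% and 2.66% of all genes were. DESeq2 called 2 higher and 1 lower, and limma 2 and 1. LOC_Os04g16450 was at 22.3, 32.6, 34.3 and 28.4 CPM in W40 replicates 1 to 4 and at 35.2, 44.3, 107 and 126 CPM in D40 replicates 1 to 4, without overlap, and changed by 1.46 ± 0.31 (SE; edgeR adjusted p = 0.012), with 0.82 in batch 1 and 1.88 in batch 2. LOC_Os02g44630 was at 408 to 615 CPM in W40, 483 and 479.7 CPM in the batch 1 and 1389 and 1799.7 CPM in the batch 2 drought libraries, with -0.17 in batch 1 and 1.69 in batch 2. LOC_Os07g26630 was lower, at 4.66 to 9.24 CPM in W40 and 1.48 to 2.90 CPM in D40 (-1.39 ± 0.39 SE, edgeR adjusted p = 0.04). The first lost its call without D40 replicate 4 (adjusted p = 0.0533), and the other 2 did so without any 1 of W40 replicates 2 to 4 or D40 replicates 3 and 4, LOC_Os07g26630 also without D40 replicate 2. None of 3 tonoplast aquaporins was called by edgeR, DESeq2 or limma, and 0 had an unadjusted p under 0.05. Batch 2 alone called all 3 higher, against 19.8% of all genes.

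Of the other regulators, 0 of 7 DREB factors and 0 of 7 stress NAC factors, transcription factors linked to drying and cold, were called by edgeR, DESeq2 or limma, and 0 and 2 had an unadjusted p under 0.05, with medians of -0.12 and 0.45. LOC_Os01g66120 of the NAC list was at 87.8 to 137 CPM in W40, 100.1 and 88.3 CPM in the batch 1 and 232 and 255 CPM in the batch 2 drought libraries. Of 12 jasmonate repressors of the JAZ family 1 was lower: LOC_Os03g08310, at 1.53 to 6.60 CPM in W40 and 0.120 to 0.355 CPM in D40 (-3.44 ± 0.95 SE, edgeR adjusted p = 0.04). Of 10 circadian clock loci 1 was higher: LOC_Os11g05930 changed by 0.48 ± 0.13 (SE; edgeR adjusted p = 0.034), with 0.42 in batch 1 and 0.45 in batch 2, and its level followed batch, at 63.2 to 89.5 CPM in batch 1 and 14.1 to 21.9 CPM in batch 2. Since 5.39% of all genes were higher and 2.66% lower, 1 call in lists of 12 and 10 loci says little about either list. DESeq2 called 2 JAZ loci lower and 2 clock loci higher, and limma 1 and 1. Both calls were lost when any 1 library but W40 replicate 1 was left out, with adjusted p up to 0.13 and 0.11. The 1 dividing cell locus tested, LOC_Os01g67160, was at 7.02 to 11.3 CPM in W40 and 5.04 to 9.12 CPM in D40 and was not called.

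Outside the lists, the 2 loci that rose most among called genes with a mean of at least 5 CPM and groups that did not overlap were LOC_Os03g17790 and LOC_Os09g02180. LOC_Os03g17790 was at 0.166, 0.332, 0.359 and 0.402 CPM in W40 replicates 1 to 4 and at 0.921, 1.44, 98 and 88.3 CPM in D40 replicates 1 to 4, and LOC_Os09g02180 at 0.199, 0.265, 0.315 and 0.184 CPM in W40 replicates 1 to 4 and at 0.816, 1.69, 43.8 and 55.7 CPM in D40 replicates 1 to 4. Their changes were 6.92 ± 0.89 (SE; edgeR adjusted p = 0.00086) and 6.42 ± 0.92 (SE; edgeR adjusted p = 0.0018). LOC_Os01g04800 was at 5.26, 10.6, 33.2 and 29 CPM in W40 replicates 1 to 4 and at 0.645, 0.509, 0.11 and 0 CPM in D40 replicates 1 to 4, and LOC_Os03g51530 at 3.17, 39.4, 45.2 and 39 CPM in W40 replicates 1 to 4 and at 0.908, 0.141, 0 and 0.11 CPM in D40 replicates 1 to 4, the 2 that fell most, with changes of -6.19 ± 1.01 (SE; edgeR adjusted p = 0.0035) and -6.17 ± 1.18 (SE; edgeR adjusted p = 0.0081). Their batch 1 changes were 2.80, 2.62, -3.18 and -2.53, whose signs the choice of groups without overlap fixes. All 4 were called whichever library was left out.

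The same soil water difference at 30 °C, measured on other libraries of segment 3, called 1576 genes (7.25%), 803 higher (3.69%) and 773 lower (3.56%). Batch 1 alone called 1065 (4.78%), 2.15% higher and 2.63% lower, and batch 2 alone 6138 (27.2%), 16.5% higher and 10.7% lower. The count was 797 and 738 without W30 replicates 3 and 4, and 997 and 868 without D30 replicates 2 and 4. Of the 1576, 398 were higher at both temperatures, which is 34.0% of those higher at 40 °C and 49.6% of those higher at 30 °C, and 233 were lower at both, 40.2% and 30.1%. Called in opposite directions were 2 genes that were higher at 40 °C and lower at 30 °C and 0 of the reverse. Across all genes tested the log2 changes had r = 0.66, a description over genes from libraries that share the batches. The PP2C list had a median of 2.52 at 40 °C and 3.50 at 30 °C, where 6 were higher. For the dehydrin and LEA list the medians were 4.38 and 3.56, and 5 were higher at 30 °C. LOC_Os09g15670 was at 0.164 to 1.21 CPM in W30 and 29.7 to 54.6 CPM in D30, where the drought libraries of both batches stood together, unlike at 40 °C. Small heat shock proteins had a median of 1.09 at 40 °C and 0.51 at 30 °C, and the 3 secondary wall loci 6.10 and 1.99. With both batches fitted 1 of the 14 and 0 of the 3 were called at 30 °C, while batch 2 alone called 11 and 3 higher there, with medians of 1.37 and 4.70. The test of the difference between temperatures with both batches called 0 members of any list.

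A test of the difference between the drought effects at 40 °C and 30 °C called 4 genes (0.0184%), none of them on a list, 2 each way (0.0092%), and these were singled out after the values were seen. DESeq2 called 225, and edgeR 0 without a batch term. LOC_Os03g51920 rose with drought at 30 °C, from 3.62 to 23.3 CPM to 160.5 to 369 CPM, and was at 236 to 2669 CPM in W40 and 185 to 2936 CPM in D40, so that the effects differed by -4.39 ± 0.62 (SE; edgeR adjusted p = 0.044). LOC_Os09g28340 rose from 0.48 to 0.657 CPM to 3.13 to 4.72 CPM at 30 °C, with 1.39 to 2.25 and 1.66 to 3.05 CPM at 40 °C (-2.25 ± 0.33 SE, edgeR adjusted p = 0.044). LOC_Os02g55600 fell at 30 °C, from 9.99 to 13.7 CPM to 4.17 to 5.82 CPM, with 21.4 to 27 and 20.3 to 31.5 CPM at 40 °C (1.44 ± 0.22 SE, edgeR adjusted p = 0.047). LOC_Os06g03800 was higher in drought at 40 °C, 5.69 to 10.3 against 2.85 to 4.77 CPM, and at 8.15 to 11 against 8.9 to 15 CPM at 30 °C (1.48 ± 0.18 SE, edgeR adjusted p = 0.017). The number of such calls was 124 in batch 1 alone (0.557%, with 0.251% higher and 0.305% lower) and 2724 in batch 2 alone (12.1%, with 4.83% higher and 7.23% lower), 212 without W40 replicate 1, 15 without W30 replicate 2, and 0 without either of D30 replicates 1 and 2, any of W40 replicates 2 to 4, or D40 replicate 2 or 4; the other 7 libraries gave 1 to 6. For the PP2C list the batches went opposite ways in this test. Batch 1 alone called 3 of 9 with a smaller drought effect at 40 °C, with a list median of -2.69. Batch 2 alone, with a list median of 0.52, called 2 of 9, LOC_Os05g46040 and LOC_Os01g46760, with a drought effect larger at 40 °C by 0.97 and 2.10 on the log2 scale (edgeR adjusted p = 0.0057 and 0.0024).

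**Figure D4:**
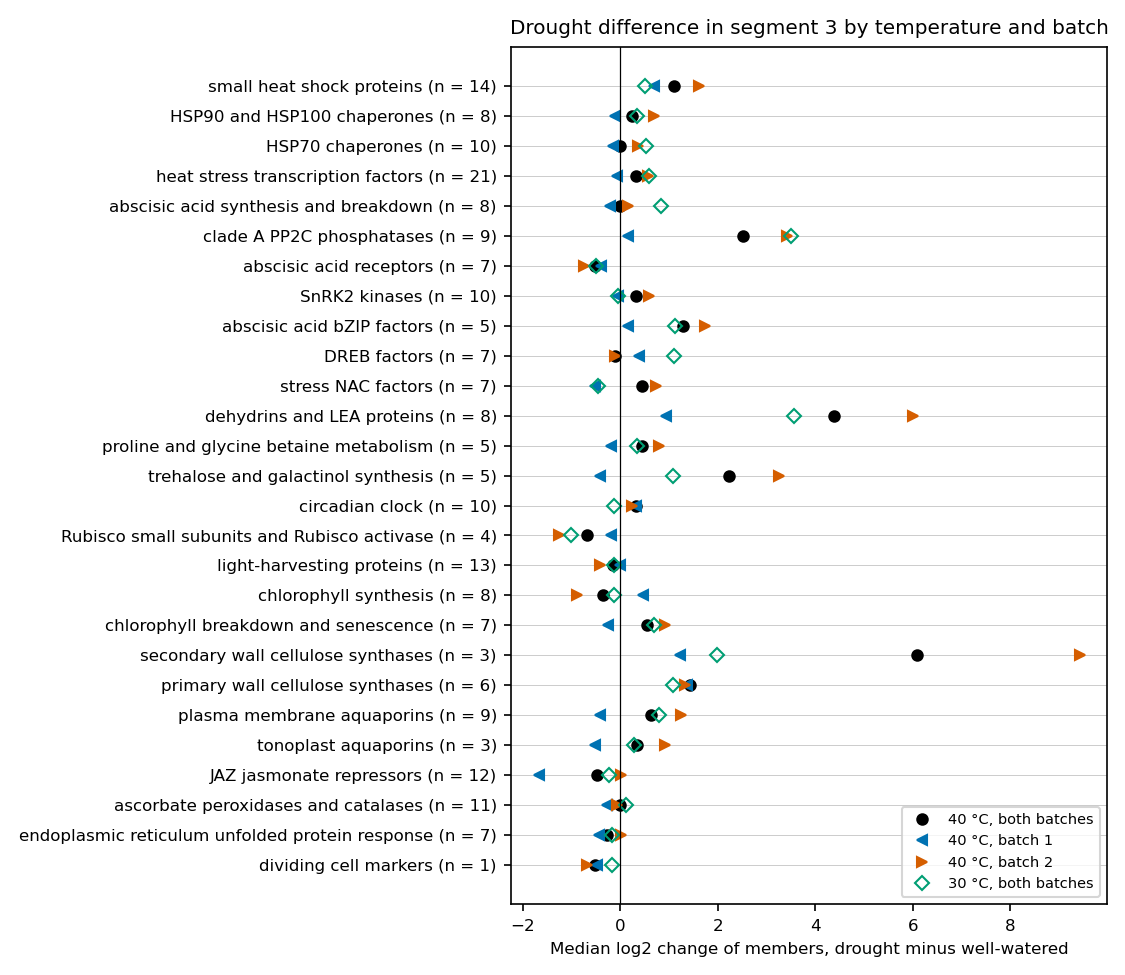
Median log2 change of the tested members of each list, drought against well-watered in segment 3, at 40 °C with both batches fitted, at 40 °C within batch 1 and within batch 2, and at 30 °C with both batches fitted. For most lists the batch 1 and batch 2 medians lie on either side of the pooled one, and for the primary wall cellulose synthases the 3 values at 40 °C lie between 1.33 and 1.42.

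Along the blade, the drought difference at 40 °C in segment 3 was set against that in the other 4 segments, whose libraries came from the same leaf pools. D40 against W40 called 1973 genes in segment 2 (8.98%, with 5.91% higher and 3.07% lower), 1620 in segment 4 (7.42%, with 4.2% and 3.22%), 1768 in segment 5 (8.05%, with 5% and 3.05%) and 2813 in segment 6 (12.8%, with 6.98% and 5.78%). Of the 1751 genes of segment 3, 430 were higher and 181 lower in all 5 segments, and 133 higher and 72 lower genes were called in no other segment, which is a count and no test. The test of the difference itself, with leaf pool as a block, called 1 gene between segments 3 and 2 (0.00419%), 0 between 3 and 4, 0 between 3 and 5, and 574 between 3 and 6 (2.4%), with the effect higher in segment 3 for 293 (1.23%) and lower for 281 (1.18%). At an unadjusted p under 0.05 the tests against segments 4 and 5 gave 1165 and 1936 genes of 23888, and no other tool was run on them. In batch 2 alone the 4 tests called 0, 6, 397 and 2632. Without W40 replicate 1 the counts against segments 5 and 6 were 188 and 2253, and against segment 6 they were 209, 27 and 78 without W40 replicates 2, 3 and 4 and 282, 357, 320 and 94 without D40 replicates 1 to 4.

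The 1 gene that differed from segment 2, LOC_Os01g72370, is on no list and was singled out after its value was seen. It was at 5.06, 298, 257 and 290.0 CPM in W40 and 10.2, 0.62, 0.103 and 0.269 CPM in D40 in segment 3, and at 5.93, 290.0, 184 and 212 CPM in W40 and 67, 7.08, 0.783 and 2.61 CPM in D40 in segment 2. The effects differed by -3.18 ± 0.55 (SE; edgeR adjusted p = 0.011), and the call was lost without any 1 of W40 replicates 2 to 4 or D40 replicates 1, 2 and 4. Against segment 6, 2 PP2C loci had a smaller drought effect in segment 3, with differences of -0.66 ± 0.18 (SE; edgeR adjusted p = 0.034) for LOC_Os01g40094 and -0.58 ± 0.16 (SE; edgeR adjusted p = 0.033) for LOC_Os01g62760. The PP2C list had medians of 2.12, 2.52, 2.78, 3.00 and 2.95 in segments 2 to 6. In the dehydrin and LEA list they were 5.14, 4.38, 4.85, 5.07 and 5.13, with 0 members called as different between segment 3 and any other. Of the primary wall cellulose synthases, 2 had a larger effect in segment 3 than in segment 6, where the list median was 0.73, and 1 circadian clock locus also did.

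**Figure D5:**
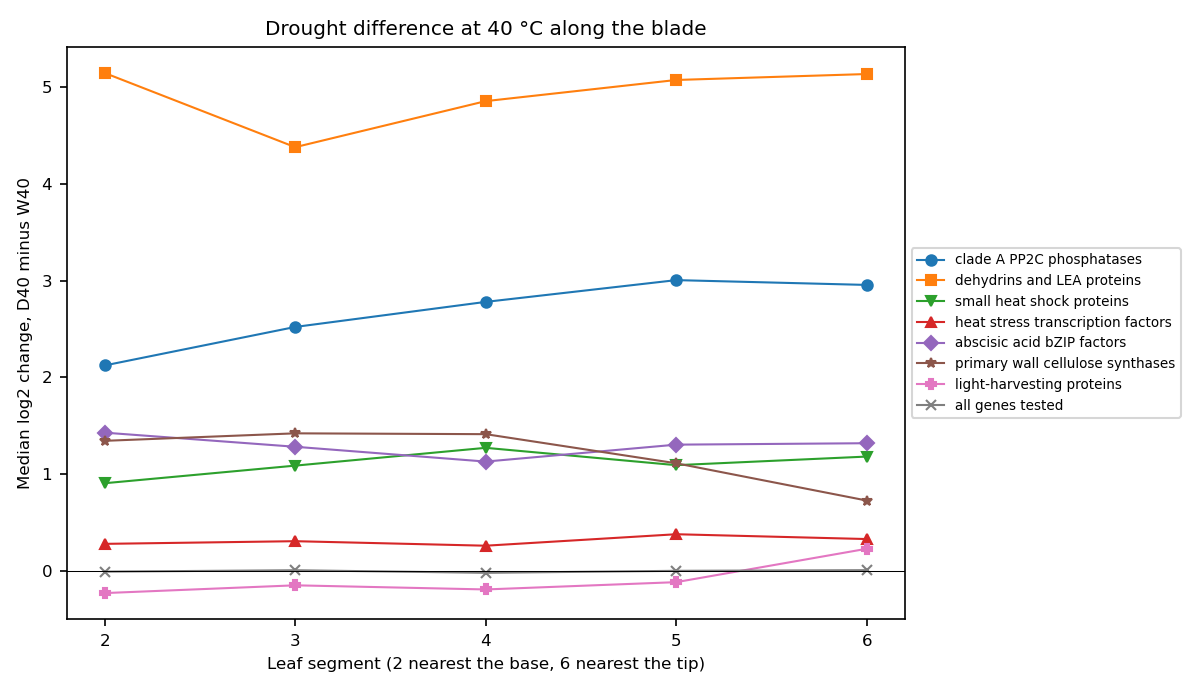
Median log2 change of D40 against W40 for 7 lists and for all genes tested, in leaf segments 2 to 6 with batch as a term. The dehydrin and LEA and PP2C medians lie above 2 and the small heat shock protein medians near 1 in each segment, while the primary wall median is 1.42 in segment 3 and 0.73 in segment 6.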

How the data were processed

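RNA-seq libraries of 100-bp paired reads were made from poly(A) RNA of rice leaf segments, per the labels' protocols. Tools in the submitters' processing notes are Picard 3.1.0, HISAT2 2.2.1 and featureCounts 2.0.6, with no stated role, and a genome build was not given in the sources used here. Raw gene counts were deposited by the authors together with batch-corrected counts (estimated counts, rounded here to whole numbers) and batch-corrected FPKM values, per the file headers, with no statement of the correction used. Raw counts of 42189 genes were the main data. Of counts from 1 to 20, 76.9% were even, so they may overstate the number of independent fragments. Libraries of 1 group differed by more than sampling noise, with a lowest chi-square per degree of freedom of 11.9. Groups came from the labels, which do not say whether replicates came from separate plantings, so p-values measure only the spread between these samples.

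In R 4.3.3 with edgeR 4.0.16, the 16 libraries of segment 3 were fitted with treatment and batch (TMM scaling; filterByExpr at min.count 10 and min.total.count 15; robust quasi-likelihood F tests, Benjamini-Hochberg adjustment over all genes tested). Segment differences were fitted to all 80 libraries with leaf pool as a block. A standard error is the size of the log2 change over the root of F. W40 has 1 library in batch 1, assumed to vary like the others. Alternatives used DESeq2 1.42.0, limma 3.58.1 on log2(batch-corrected FPKM + 1), other filters, scalings and sample sets, and each library left out in turn. Floors of 3 counts cover counting error only, while the standard errors come from the fit and take in the spread between libraries. Counts were simulated for 21736 genes of the comparison of D40 with W40, with 1 drought effect shared by both batches. Changes were put only into genes with a mean of at least 1 CPM. The fit recovered 52% of 100 changes of 1 and 90% of 100 changes of 2 on the log2 scale. Of the calls, 5.96% were unchanged genes. In the measured counts the effect differed between batches for 20.2% of genes, so these shares need not hold there.

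The file pairs locus IDs with no names, and 0 of them matched the RefSeq genes supplied, so symbols and sequences are not given. The 28 lists hold 234 locus IDs entered by hand, and both the comparison and the lists were chosen with earlier results of these data known. Named loci are, per list, up to 4 members with the smallest p (any member of the chaperone, heat stress transcription factor, abscisic acid, PP2C and dehydrin lists) and outside the lists 2 each way with the largest change among called genes with a mean of at least 5 CPM and no overlap. Of the list loci, 2 were not in the table and 14 did not pass the filter.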

Additional observations from a re-analysis of the deposited data

Results flagged for a closer look

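Of 142 groups of 4 libraries, those whose values were not all equal were tested. In 19 of them 1 library stood apart: its gap to the nearest neighbour, divided by the group's range, exceeded Dixon's 95% critical value. Chance gives about 1 in 20 only where the 4 libraries are alike. W40 holds 1 library of batch 1 and 3 of batch 2, and D40 holds 2 of each. A batch difference therefore tends to flag W40 replicate 1 and to go unseen in D40. The loci were also chosen by their results. In 13 of the 19 the library that stood apart was W40 replicate 1, the only W40 library of batch 1. It was lowest, with these gaps as a share of the range, for LOC_Os01g04380 (0.884), LOC_Os01g04370 (0.862), LOC_Os04g38410 (0.93), LOC_Os03g51530 (0.851) and LOC_Os01g72370 (0.847). It was highest for LOC_Os08g36860 (0.861), LOC_Os03g16170 (0.844), LOC_Os11g05930 (0.966), LOC_Os01g12710 (0.994), LOC_Os09g25490 (0.836), LOC_Os10g32980 (1), LOC_Os02g02400 (0.957) and LOC_Os06g03800 (0.837). Within W40, replicate 2 was highest for LOC_Os01g43590 (0.857), replicate 3 lowest for LOC_Os01g40094 (0.908) and replicate 4 highest for LOC_Os03g08310 (0.988). Within D40, replicate 4 was lowest for LOC_Os10g40360 (0.899) and replicate 1 highest for LOC_Os03g51530 (0.845) and LOC_Os01g72370 (0.948).

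Drought effects that differed by a test of the difference itself were 4 between temperatures, with log2 differences of 1.44 for LOC_Os02g55600, -4.39 for LOC_Os03g51920, 1.48 for LOC_Os06g03800 and -2.25 for LOC_Os09g28340. Between segments 3 and 2 there was 1, LOC_Os01g72370 at -3.18. Between segments 3 and 6 there were 574, among them LOC_Os01g40094 at -0.66, LOC_Os01g62760 at -0.58, LOC_Os03g17790 at 2.04, LOC_Os09g28340 at -2.12 and LOC_Os01g72370 at 2.78.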

How the results depend on the processing

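The number of genes called between D40 and W40 was 3213 with DESeq2, 421 without a batch term, 8319 in batch 2, 25 in batch 1, 1050 with limma on FPKM and 341 with the replicate number as a block, and stayed within 1.5 times of 1751 with the other scaling, filters, batch-corrected counts and 8 libraries alone; leaving out 1 library gave 561 to 3612. The genes called changed more than their number did in 2 of these settings. Of the 1751, 1159 were called in the same direction among 1862 with the 8 libraries alone. With batch-corrected counts it was 1243 among 1517. The other scaling kept 1729, no filter 1346 and a filter at a mean of 1 CPM 1428. Same-numbered W40 and D40 libraries deviated together with r = 0.49, -0.30, 0.31 and 0.40, for replicates 1 to 4, where the negative pair is the 1 that spans both batches. Not every pair passed 0.1, but batch was left in these deviations. It pushes pairs within a batch up and the pair across batches down, so the values cannot decide on pairing. The labels state no pairing, and the block was kept as an alternative only. For the difference between temperatures the counts were 225 (DESeq2), 0 (no batch term), 2724 (batch 2) and 0 (replicate block), and 0 to 212 on leaving out 1 library. At 30 °C they were 6138 (batch 2) and 870 (replicate block), and 738 to 2250 on leaving out 1. The difference between batches gave 2513 to 4343 on leaving out any 1 library but W40 replicate 1, without which it cannot be estimated. Segment 3 against segments 2, 4, 5 and 6 gave 0, 6, 397 and 2632 in batch 2 and 0 to 1, 0, 0 to 188 and 27 to 2253 on leaving out 1 pool; with segment by batch added it gave 2 against segment 2 and 1 against segment 5, and with W40 and D40 alone 4 against segment 2. Batch 2 called 8283, 7704, 7733 and 8977 in segments 2, 4, 5 and 6. The cause of these differences was not tested.

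Calls were followed through these settings for 66 loci. They were the called list members, the member with the smallest p in each list, and the largest changes outside the lists. Other loci named above were not followed. Of the 55 called among the 66, 54 stayed called in batch 2 and 18 without a batch term. With the replicate block 13 stayed called, and 19 did whichever library was left out. In batch 1 none of the 53 with a value stayed called, and among these 66 loci, called or not, signs turned for LOC_Os07g05940 (-1.54), LOC_Os01g46760 (-0.060), LOC_Os03g16170 (-0.33), LOC_Os01g62760 (-0.19), LOC_Os02g44630 (-0.17), LOC_Os09g35030 (0.39), LOC_Os04g38410 (0.054), LOC_Os03g20700 (0.61), LOC_Os01g12710 (-0.27) and LOC_Os03g05290 (-0.53). Depth limits the loci under 1 CPM in a group.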
